A study of Mus musculus with 10 samples.

Results

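Transglutaminases join glutamine and lysine side chains of proteins by calcium-dependent isopeptide bonds that are hard to cleave. The genes described are Tgm1, Tgm2, Tgm3 and Tgm5, read by every probe set (a group of short probes for one transcript) that the array annotation gives to exactly 1 of these symbols. There were 10 such probe sets of 45037 in all: 1 for Tgm1, 6 for Tgm2, 2 for Tgm3 and 1 for Tgm5. In the upper epidermis Tgm1, Tgm3 and Tgm5 cross-link proteins such as involucrin and loricrin into the cornified envelope, the protein shell that replaces the plasma membrane of a dead surface cell. Tgm1, a membrane-anchored enzyme, is the one whose loss in humans causes lamellar ichthyosis. Tgm3, a zymogen cut by proteases, also cross-links trichohyalin in the hair follicle, and loss of human TGM5 causes acral peeling skin. Tgm2 is the widely expressed tissue transglutaminase, which also binds fibronectin outside the cell.

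The arrays came from mouse keratinocytes in 4 groups. Freshly isolated epidermal cells gave 2 RhoA-KO arrays (genotype RhoA fl/fl K5 cre) and 2 Wildtype arrays (RhoA fl/+ K5 cre), and cultured primary keratinocytes gave 3 RhoA-KO and 3 Wildtype arrays with the same genotypes. The groups are written KO and WT here. Both carry the Cre recombinase under the keratin 5 promoter, which acts in basal keratinocytes, so WT cells have 1 floxed RhoA allele as well. RhoA is a small GTPase that governs actin organisation. The labels call the arrays biological replicates without naming animals or giving ages, so a p-value here reflects only how these arrays vary, which may be technical variation.

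The deposited signals of fresh and cultured arrays lie on different scales. The array median was 64.1 to 64.8 units on fresh arrays and 7.75 to 8 on cultured ones, so signals were compared only within a condition. A probe set entered the test of a condition where at least 2 of its arrays read it above their own median. Of 9 basal keratinocyte markers, 9 lay above the median on every fresh array and 8 on every cultured array, where Krt15 read 3.76 to 4.69. The suprabasal keratin gene Krt1 was also low in culture, at 4.3 to 26.7. Rhoa itself read 7628 to 8209 units on cultured KO arrays and 9240 to 11249 on cultured WT arrays (adjusted p = 0.156 by limma), and 4296 and 4398 on fresh KO arrays against 3526 and 4059 on fresh WT arrays (adjusted p = 0.434, limma). No source used here places this probe set inside or outside the floxed segment, so its values do not test the genotype. Fresh KO replicate 2 stood apart: its 13 hair follicle markers summed to 44432 units, against 720.03 on KO replicate 1 and 917 and 1658 on the WT arrays.

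The 250 bases before annotated starts of Tgm1 and Tgm3 are shown because these genes had the smallest p-values of the family, Tgm3 in fresh cells and Tgm1 in culture. They come from RefSeq on GRCm38.p6, in which 3 of the 4 genes had a promoter entry and Tgm1 had 2 windows. Tgm2 was not among them. The gene spans given there are 55700009 to 55713921 for Tgm1 and 129987794 to 130050399 for Tgm3. The windows shown lie inside these spans, so they precede starts within the span and not its outermost start. Capitals mark matches to the motifs searched on both strands, which are spelled out after the sequences and did not overlap one another.
Tgm1, chr14:55713493-55713742, minus strand: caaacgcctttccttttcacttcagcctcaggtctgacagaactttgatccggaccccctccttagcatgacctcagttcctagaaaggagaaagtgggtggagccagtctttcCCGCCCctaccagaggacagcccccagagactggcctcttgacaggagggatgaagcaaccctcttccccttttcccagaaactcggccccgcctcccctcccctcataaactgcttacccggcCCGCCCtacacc
Tgm1, chr14:55713089-55713338, minus strand: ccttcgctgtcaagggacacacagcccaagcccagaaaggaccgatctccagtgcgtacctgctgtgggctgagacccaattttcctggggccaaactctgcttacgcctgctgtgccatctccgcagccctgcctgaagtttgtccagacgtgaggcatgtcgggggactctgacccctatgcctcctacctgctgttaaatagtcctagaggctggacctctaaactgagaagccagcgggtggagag
Tgm3, chr2:130012090-130012339, plus strand: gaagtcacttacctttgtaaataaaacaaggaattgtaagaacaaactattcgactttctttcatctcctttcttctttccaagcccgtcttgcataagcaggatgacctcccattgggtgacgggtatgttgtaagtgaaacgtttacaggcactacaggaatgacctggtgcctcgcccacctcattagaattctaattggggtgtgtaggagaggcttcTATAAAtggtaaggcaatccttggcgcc
The Tgm3 window holds a TATA box, searched as TATAAA, whose first base lies 28 bases before the start. That motif occurred in 12.4% of 32851 promoters of this length. The first Tgm1 window holds 2 GC boxes, searched as GGGCGG, which 32.7% of promoters hold at least once. The second Tgm1 window holds no searched motif. The AP-1 motif TGANTCA occurred in 6.75% of promoters and in none of these windows. The grainyhead motif AACCNGTT occurred in 1.79% of promoters and likewise in none of them. G and C made up 58.0% of each Tgm1 window and 44.0% of the Tgm3 window, beside a median of 52.4% over all promoters. These matches describe the letters and show no binding.

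Of the 10 probe sets, 5 were tested in fresh cells, covering all 4 genes, and 3 in culture, covering Tgm1 and Tgm2. The other 5 in fresh cells were all of Tgm2, and the other 7 in culture comprised 4 of Tgm2, both of Tgm3 and that of Tgm5. By limma with Benjamini-Hochberg adjustment, 0 of the 5 and 0 of the 3 passed an adjusted p of 0.05. Over all probe sets limma called 0 of 22893 in fresh cells (0%; 2953, or 12.9%, at an unadjusted p under 0.05) and 62 of 22682 in culture (0.273%; 3548, or 15.6%, unadjusted). At an unadjusted p under 0.05 there were 2 of the 5 fresh probe sets, both of Tgm3, and 1 of the 3 cultured ones, that of Tgm1.

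**Figure D1:**
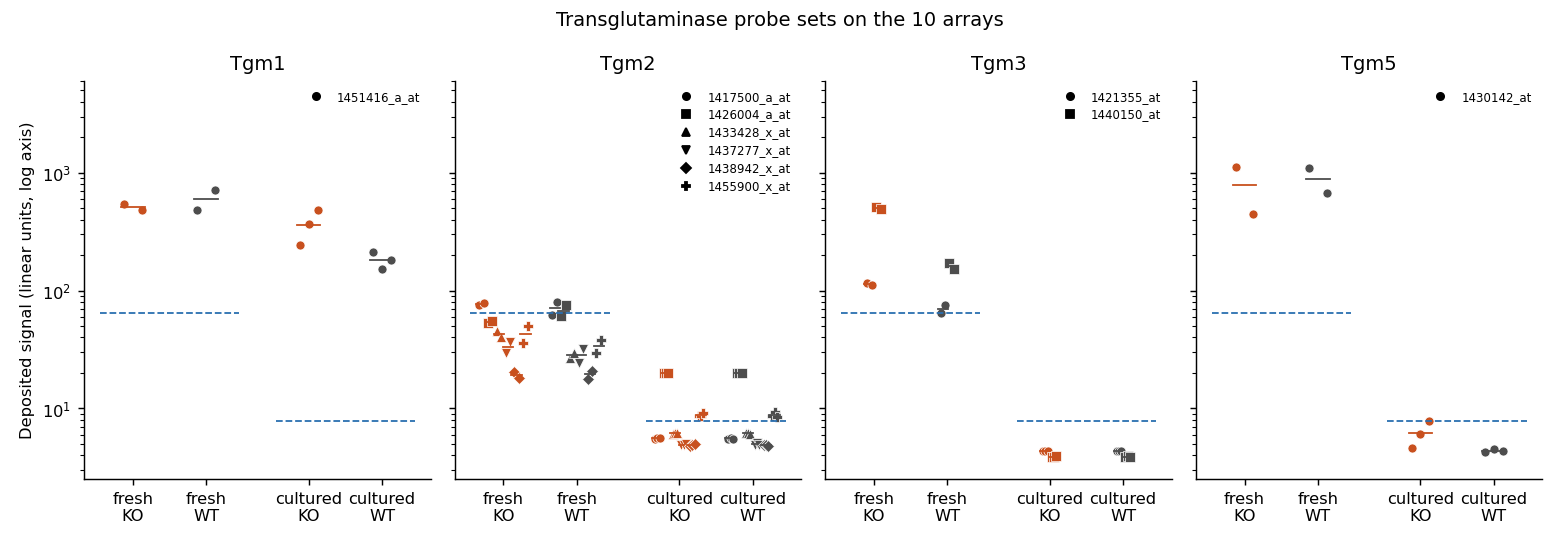
Deposited signal (linear units on a log axis) of each transglutaminase probe set, a point per array, with KO in orange and WT in grey; short lines are group means and dashed blue lines the mean array median of the condition. Tgm3 is higher on both fresh KO arrays and lies under 5 units on all cultured arrays, and Tgm1 is higher on the cultured KO arrays.

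Tgm1, probe set 1451416_a_at, was the transglutaminase measured well above the array median in both conditions. On cultured arrays it read 244, 364 and 483 units in KO replicates 1 to 3, against 213, 153 and 180.4 in WT. All 3 KO values lay above all 3 WT values, with KO replicate 1 nearest to the WT arrays. The means were 364 ± 120 in KO and 182 ± 29.9 in WT (SD, n = 3 each), a log2 change of 0.96 (SE 0.28, 95% confidence interval 0.28 to 1.63, limma adjusted p = 0.205), which did not pass. Of all tested probe sets 1.68% had a higher log2 change in culture, and 10.1% had all KO arrays above all WT arrays.

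On fresh arrays the same probe set read 541 and 482 units in KO and 486 and 710.1 in WT, so the groups overlapped. The log2 change was -0.20 (SE 0.20, interval -0.72 to 0.31, adjusted p = 0.705, limma), and it was 0.07 without WT replicate 2. The KO effect in culture minus that in fresh cells was 1.16 on the log2 scale (SE 0.34, interval 0.40 to 1.91). This difference, tested from both limma fits, did not pass either (adjusted p = 0.130; 165 of 18773 probe sets, 0.879%, passed).

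Several marker sums were also higher on cultured KO arrays without overlap. Suprabasal markers summed to 66124 to 71689 in KO and 54855 to 57586 in WT (8 markers). The largest part was Sbsn, at 37018, 45194 and 47173 in KO and 28098, 38294 and 37807 in WT, followed by Lgals7 and Krtdap. Sbsn, Lgals7, Krtdap, Krt1 and Calml3 each overlapped between the groups. Krt10, Dsg1a and Dsc1 were higher in KO without overlap. Fibroblast markers summed to 226 to 416 in KO and 99.5 to 140 in WT (8 markers). The fibroblast sum was mostly Vim and Fbln2, with Fbln2 at 79.8, 203 and 218 in KO and 30.6, 31.0 and 28.8 in WT, while Col1a1, Col1a2, Col3a1, Dcn and Lum read 3.96 to 7.07 on every cultured array, below the array median. Hair follicle sums were 411 to 517 in KO and 302 to 398 in WT (13 markers), most of which was Tchh, while the inner root sheath and hair keratins of the list read 3.3 to 8.8 on every array. The endothelial sums were 285 to 326 in KO and 199 to 247 in WT (8 markers, of which only Egfl7 lay above the median). Langerhans cell and myeloid sums were 2527 to 3256 in KO and 3957 to 5227 in WT (11 markers), nearly all of it Epcam, also a gene of epithelial cells, at 2378, 3004 and 2433 in KO and 5119, 3819 and 4373 in WT. Cd14 was higher in KO (94.9, 198 and 161 against 53.2, 83.2 and 81.6 in WT), and the defining markers Cd207, Cd74 and H2-Aa read 3.39 to 4.64 throughout. In these bulk samples fewer cells of a type and less RNA per cell cannot be told apart, and the part of these shifts in the Tgm1 values was not tested.

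Tgm3 had the largest KO to WT difference of the family in fresh cells. Probe set 1440150_at read 516 and 489 units in KO replicates 1 and 2, against 173 and 153 in WT. The KO values lay close together, as did the WT values, and the groups did not overlap. The means were 502 ± 18.6 in KO and 163 ± 14.1 in WT (SD, n = 2 each), a 3.09-fold difference (log2 change 1.63, SE 0.13, interval 1.30 to 1.96, limma adjusted p = 0.153, unadjusted p = 3.61e-05). Only 3 of the 22893 tested probe sets had a smaller p and 0.153% had a higher log2 change, yet it did not pass, like every other probe set in that comparison.

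The second Tgm3 probe set, 1421355_at, pointed the same way, with a smaller difference. It read 117 and 112 units in KO and 64.4 and 75.7 in WT (log2 change 0.71, SE 0.15, adjusted p = 0.276, limma). All KO values again lay above all WT values, as in 23.5% of tested probe sets, and the difference was 1.64-fold. This probe set lay above the array median on both KO arrays and on 1 WT array, so the KO arrays alone let it into the test, and it is no separate support for a change.

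The log2 change of 1440150_at was 1.59 without KO replicate 1 (limma adjusted p = 0.0108) and 1.67 without KO replicate 2 (adjusted p = 0.0616, limma). In each case a single KO array is left and is assumed to vary like the WT pair, which alone gives the spread. Limma called 945 and 11 probe sets in those fits. In 1 fit over all 10 arrays the adjusted p was 5.51e-05, with 447 probe sets called, and the SE was 0.08 in place of 0.13. In that fit 6 of the arrays giving the spread are cultured ones, which read this probe set at 3.89 to 3.93. These 2 passes are therefore not support for a change.

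**Figure D2:**
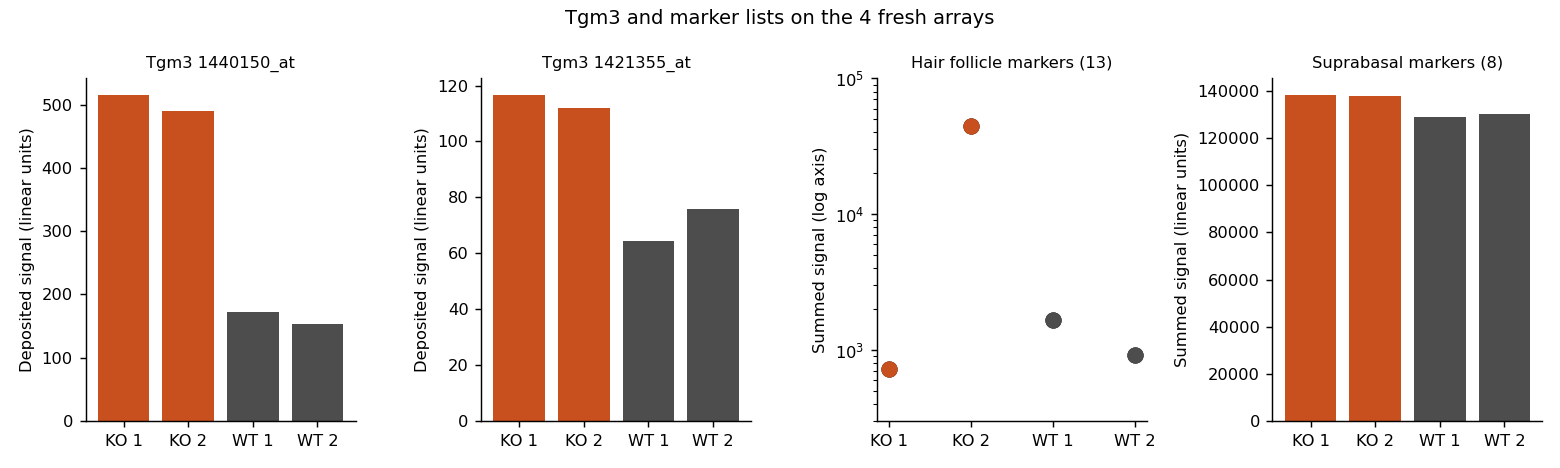
Left pair, bars for the deposited signal of both Tgm3 probe sets on the 4 fresh arrays; right pair, summed signals of 13 hair follicle markers (points, log axis) and 8 suprabasal markers (bars). Tgm3 is about equal on both KO arrays. The hair follicle sum is 720.03 on KO replicate 1 and 44432 on KO replicate 2, and its part in the Tgm3 values was not tested.

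Tgm3 is a hair follicle gene as well, and hair follicle transcripts differed greatly between the fresh KO arrays. Krt25, an inner root sheath keratin, read 62.3 on KO replicate 1 and 10946 on KO replicate 2, against 282 and 74.7 in WT. Tchh, the gene of the Tgm3 substrate trichohyalin, read 62.5 and 4225 in KO against 272 and 97.9 in WT. On KO replicate 1, which had the lowest hair follicle sum of the 4 arrays, Tgm3 by 1440150_at read 516 units. The part of hair follicle transcripts in the Tgm3 values was not tested.

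Suprabasal sums were higher in fresh KO cells, at 137717 and 138435 against 129135 and 130252 in WT. Krt1 read 16933 and 17555 in KO and 12360 and 10562 in WT, and Krt10, Lgals7 and Calml3 were also higher in KO without overlap. Sbsn went the other way, at 21839 and 21131 in KO and 22278 and 23340 in WT. Krtdap, Dsg1a and Dsc1 overlapped between the groups. Fibroblast sums were 2250 and 2618 in KO and 1818 and 2061 in WT. Of these 8 markers Col3a1 read 82.5 and 93.9 in KO and 22.9 and 21.4 in WT, and Dcn 137 and 1012 in KO and 102 and 62.6 in WT. Col1a2 read 135 and 133 in KO and 100.3 and 118 in WT, and Col1a1 34.3 to 39.3 throughout. Vim, the largest part of each sum, read 1751 and 1226 in KO and 1704 and 1497 in WT, so its groups overlapped. Melanocyte sums were 1578 and 5057 in KO and 1287 and 1382 in WT (8 markers). Tyr, Tyrp1, Dct, Pmel, Mlana and Kit were higher in KO, most so on KO replicate 2, as with Tyrp1 at 95.9 and 719. Mitf was lower in KO, at 550 and 474 against 669 and 699 in WT, and Sox10 overlapped. Langerhans cell and myeloid sums were 13668 and 22201 in KO and 24003 and 29998 in WT. The part of these shifts in the Tgm3 values was not tested.

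In culture Tgm3 was not measured above the dim range. Probe set 1440150_at read 3.89 to 3.93 units on all 6 arrays and 1421355_at 4.32 to 4.36, with no separation of the genotypes. With no filter on dim probe sets the KO effect of 1440150_at in culture minus that in fresh cells was -1.63 on the log2 scale (adjusted p = 0.0196, from both limma fits). That difference sets the fresh change against cultured values of 3.89 to 3.93, below every array's median.

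**Figure D3:**
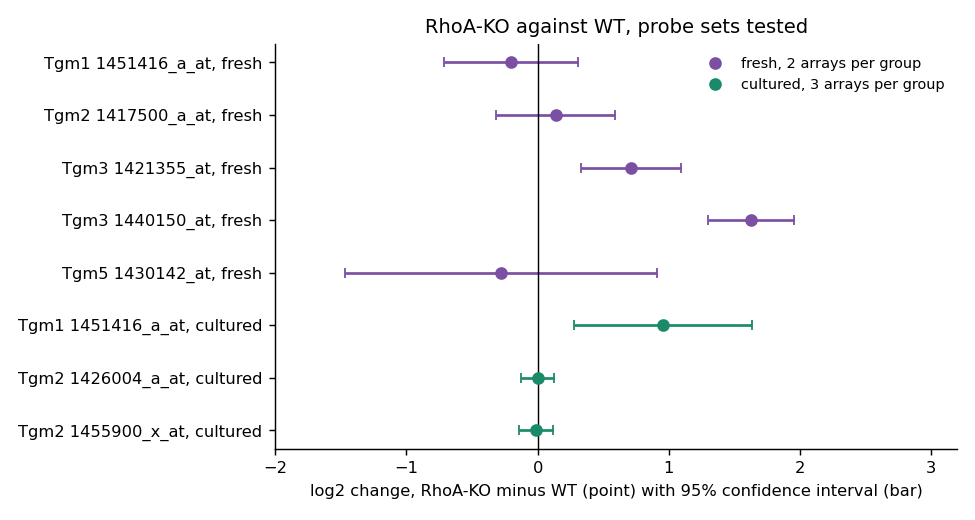
Log2 change, KO minus WT, of each tested transglutaminase probe set with its 95% confidence interval from limma; purple is fresh (2 arrays per group) and green cultured (3 arrays per group). The intervals of both Tgm3 probe sets in fresh cells and of Tgm1 in culture lie above 0, and none of the 8 passed after adjustment over all probe sets.

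Tgm5, probe set 1430142_at, varied more between arrays of one genotype than between genotypes in fresh cells. It read 1126 and 443 units in KO and 1091 and 674 in WT, with the highest and the lowest value both in KO. The log2 change was -0.28 (SE 0.47, interval -1.47 to 0.91, limma adjusted p = 0.831), 0.39 without KO replicate 2 and 0.07 without WT replicate 1. The low value came from KO replicate 2, the array with the highest hair follicle sum, whose part in that value was not tested.

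In culture Tgm5 lay below the array median on every array and was not tested. It read 4.65, 6.10 and 7.76 units in KO replicates 1 to 3, against 4.31, 4.52 and 4.33 in WT. The KO values lay above the WT values, and the highest of them still fell short of its array's median of 7.90. KO replicate 3 read highest and KO replicate 1 lowest of the KO arrays for both Tgm5 and Tgm1. With no filter limma gave a log2 change of 0.46 (SE 0.17, adjusted p = 0.572).

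Tgm2 was near or below the array median on all arrays by each of its 6 probe sets except 1426004_a_at in culture. That probe set read 20, 20.09 and 20.11 units on cultured KO arrays and 20.03, 20.17 and 19.97 on cultured WT arrays, so the groups overlapped within a narrow range. Its log2 change was 0.00 with an interval of -0.13 to 0.13 (limma adjusted p = 0.998). Dimmer probe sets vary as little on cultured arrays, such as 1417500_a_at at 5.51 to 5.62 in WT, so this narrow interval does not show that Tgm2 was unchanged. The second tested in culture, 1455900_x_at, read 8.55 to 9.08 in KO and 8.47 to 9.36 in WT (log2 change -0.01, adjusted p = 0.956, limma). The remaining 4 read 4.83 to 6.23 in KO and 4.79 to 6.22 in WT.

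In fresh cells only 1417500_a_at was tested, with 76.1 and 78.7 units in KO and 61.6 and 80.4 in WT (log2 change 0.14, SE 0.18, adjusted p = 0.777, limma). It was -0.06 without WT replicate 1. The 5 untested probe sets did not point one way. Probe set 1433428_x_at read 45.3 and 40.0 in KO against 26.9 and 29.6 in WT, while 1426004_a_at read 53.2 and 55.0 in KO against 60.3 and 74.96 in WT. Of the 6 probe sets 4 carry the array maker's suffix for probes that may bind other transcripts too. Tgm2 is also known from endothelial cells, whose marker Pecam1 read 28.1 to 32.2 on fresh arrays and 4.11 to 4.17 on cultured arrays, below every array's median. Of 8 endothelial markers 0 or 1 lay above the median on a fresh array: Egfl7 at 81.9 on KO replicate 2 and Kdr at 74.9 on WT replicate 2. On every cultured array 1 did, Egfl7, at 165 to 294. The part of endothelial cells in the Tgm2 values was not tested.

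Fresh and cultured cells were set side by side by the percentile of a probe set within its array, a description with no test. Tgm1 lay at percentiles 80.6 to 85.7 on fresh arrays and 69.3 to 78.4 on cultured ones. Tgm5 lay at percentiles 79.7 to 90.5 on fresh arrays and 11.3 to 49.5 on cultured ones. Tgm3 by 1440150_at lay at percentiles 81.0 and 81.4 on fresh KO arrays and 65.2 and 66.2 on fresh WT arrays, and at 4.63 to 4.78 on cultured arrays. By these probe sets the 3 genes lay in the upper part of every fresh array, and only Tgm1 did so in culture.

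**Figure D4:**
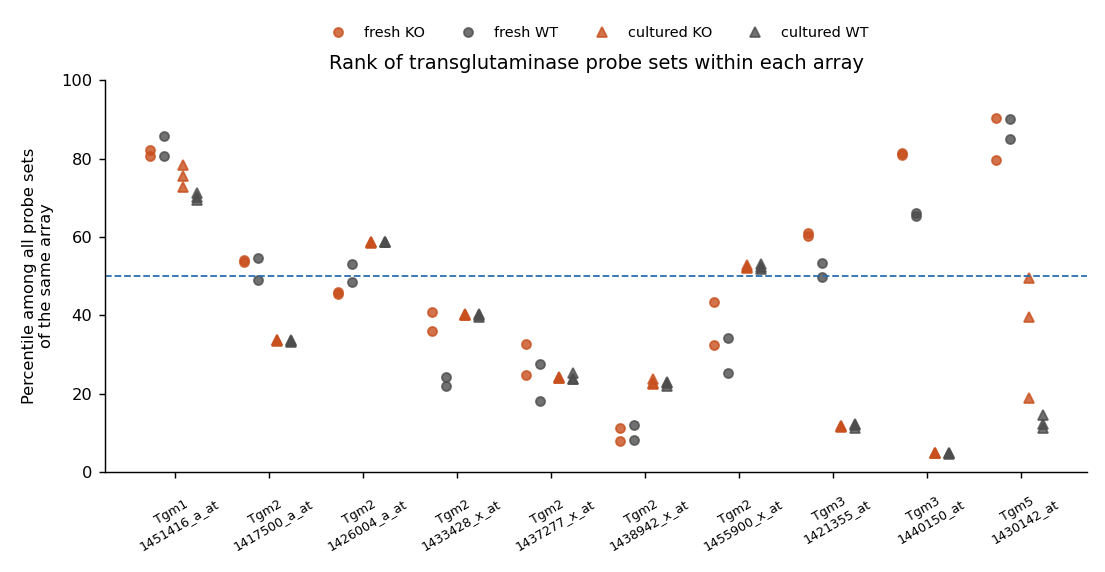
Percentile of each transglutaminase probe set among all probe sets of its array, a point per array (circles fresh, triangles cultured, orange KO, grey WT); the dashed line is the array median. Tgm1 lies above the median in both conditions. Tgm5 and Tgm3 by 1440150_at do so on fresh arrays only, and Tgm3 by 1421355_at lies at 49.9 and 53.4 on the fresh WT arrays.

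The genes with the profile most like that of Tgm1 were sought over the 10 arrays, among 9800 genes tested in both conditions, by the root mean square difference of log2 signals centred within each condition. The nearest was the desmosomal cadherin gene Dsc2 (0.147), followed by the transporter gene Flvcr2 (0.157), the RING finger gene Rnf225 (0.195), the epithelial transcription factor gene Sp6 (0.199) and the ankyrin gene Ank3 (0.201). The median over all these genes was 0.495. Their log2 changes in culture were 0.69 to 1.12, and none of the 5 passed in either condition. Changes close to that of Tgm1 follow from this choice of genes and support nothing. Tgm2, Tgm3 and Tgm5 had no probe set standing for the gene that was tested in both conditions.

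Of 6 other family genes listed, 5 had a named probe set, and Tgm7 did not. In fresh cells none of Tgm4, Tgm6, F13a1 (coagulation factor XIII), F13b and Epb42 lay above the array median on any array, with 11.6 to 62.2 units. In culture Tgm4, Tgm6 and Epb42 were tested, with log2 changes of -0.02 to 0.08, and 0 passed. They were dim there: Tgm4 read 14.5 to 17.1 units, Tgm6 8.92 to 9.5 and Epb42 7.97 to 8.46, beside array medians of 7.75 to 8. As for Tgm2, small changes in this range do not show that the genes were unchanged.

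Cornified envelope substrates, the proteins that Tgm1, Tgm3 and Tgm5 join, were mostly higher in cultured KO cells. Of 40 tested, 36 were higher and 4 lower, and 2 passed, both higher. The median log2 change was 2.03, with an SD of 1.23 between the KO arrays. Over all tested probe sets the median was -0.01, and 47.2% were higher. Several Lce genes were read by probe sets with the suffix for probes that may bind other transcripts too, so the 40 are not separate counts. Ivl, the gene of involucrin, read 1900.2, 2549 and 2249 units in KO and 706, 483 and 433 in WT (limma adjusted p = 0.0444). Csta1, a stefin gene, read 3591, 3218 and 3373 in KO and 992, 745 and 574 in WT (adjusted p = 0.0386, limma). Neither call held with every array left out in turn. Each was lost without any 1 of the KO arrays, WT replicate 2 or WT replicate 3, and both held without WT replicate 1. Where lost, the adjusted p was 0.0584 to 0.202 for Ivl and 0.0646 to 0.186 for Csta1 (limma). Over all these fits the log2 changes stayed at 1.92 to 2.28 for Ivl and 1.98 to 2.37 for Csta1. Lor, the gene of loricrin, read 688, 1922 and 1766 in KO and 147, 262 and 250.1 in WT without passing (adjusted p = 0.102, limma). Of the 40, 9 averaged under 20 units in WT, close to the dim range of these arrays.

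In fresh cells the substrates did not share a direction. Of 34 tested, 12 were higher and 22 lower, with a median log2 change of -0.06, and 0 passed. Over all tested probe sets the median was 0.00, and 49.9% were higher. Without KO replicate 2 there were 17 higher and 17 lower. Sprr1b, a small proline-rich envelope gene, read 908 and 819 units in KO and 214 and 96.3 in WT (log2 change 2.59, limma adjusted p = 0.242). Krt1 and the cystatin gene Cst6 were at log2 changes of 0.59 and 0.45, while Lor read 6056 and 3540 in KO and 7810 and 11965 in WT (log2 change -1.06, adjusted p = 0.317, limma). Of 33 substrates tested in both conditions 19 were higher in culture and lower in fresh cells, 10 higher in both, 3 lower in both and 1 the reverse. Some fresh changes were very small, such as Lce3c at -0.0038 and Csta1 at -0.0061 among the 19 and Hrnr at 0.0046 among the 10. The fresh signs behind these counts are therefore uncertain.

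**Figure D5:**
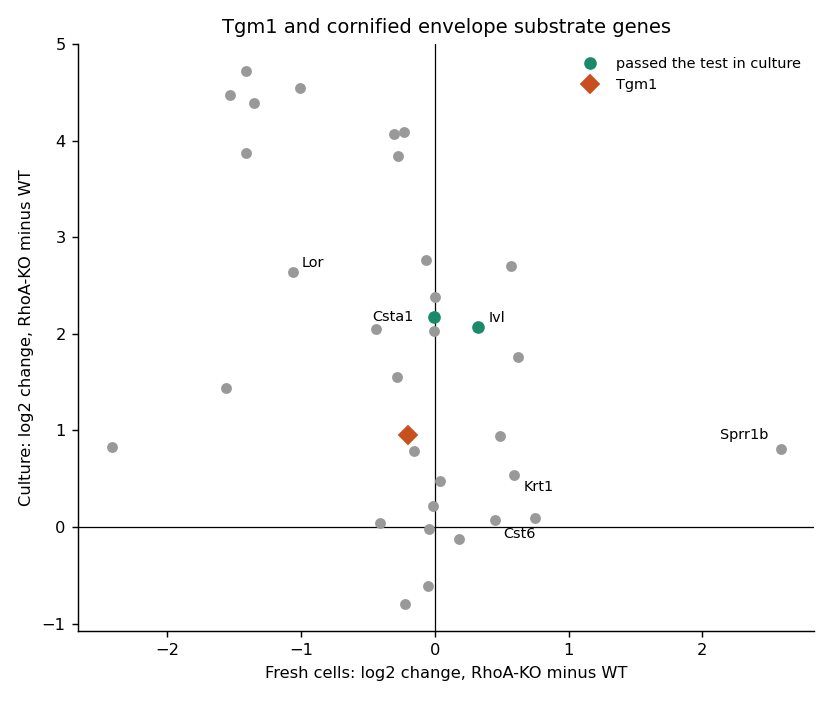
Log2 change, KO minus WT, of 33 cornified envelope substrate genes in fresh cells (horizontal) and in culture (vertical), a point per gene, with Tgm1 as an orange diamond; green points passed the test in culture. Tgm1, at -0.20 and 0.96, lies with the genes that were higher in culture and lower in fresh cells, but its fresh change was 0.07 without WT replicate 2.

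Enzymes of the lipid envelope and ichthyosis genes of the same layer were higher in 16 of 19 and lower in 3 in culture (median log2 change 0.26) and higher in 7 and lower in 12 in fresh cells (median -0.15), with 0 passing in either. Cyp4f39, a fatty acid hydroxylase gene, had a log2 change of 1.33 in culture (adjusted p = 0.0918, limma), and Casp14, the gene of the protease caspase-14, 0.69 in fresh cells (adjusted p = 0.244, limma), where its other probe set pointed the opposite way. Among genes listed as proteases that act on transglutaminases or as inhibitors of such proteases, 6 of 10 were higher in each condition, and 0 passed. Ctsd, the gene of cathepsin D, read 6787, 9457 and 7949 units in cultured KO cells and 6072, 5667 and 5266 in cultured WT cells (adjusted p = 0.180, limma).

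Transcription factors known to act on epidermal differentiation genes were split in direction in culture and mostly lower in fresh cells. Of 22 tested, 10 were higher and 12 lower in culture (median log2 change -0.03) and 5 were higher and 17 lower in fresh cells (median -0.12), with 0 passing. The AP-1 gene Fosl1 was at -0.57 in fresh cells (adjusted p = 0.249, limma), and Ovol1 and the vitamin D receptor gene Vdr were at -0.72 and -0.87 in culture (adjusted p = 0.188 and 0.193, limma).

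Of the genes listed as Tgm2 binding partners, matrix and related factors, 14 were tested in each condition, with 6 higher in fresh cells and 8 in culture, and 0 passed. Fn1, the gene of fibronectin, read 275 and 266 units in fresh KO cells and 611 and 658 in fresh WT cells (log2 change -1.23, SE 0.12, limma adjusted p = 0.153), and its log2 change in culture was -0.67. Of the 14 tested retinoid and cytokine genes that act on Tgm2, 6 were higher in fresh cells and 5 in culture, with 0 passing. The retinoic acid-degrading enzyme gene Cyp26b1 was at -0.63 in both.

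Inner root sheath genes were higher in 8 of 9 tested in fresh cells (median log2 change 2.13), with 0 passing, and this direction rested on 1 array: without KO replicate 2 all 9 were lower (median -1.04). Krt28, an inner root sheath keratin gene, read 32.7 and 3367 units in KO and 67.2 and 28.4 in WT (log2 change 2.92, SE 2.08, adjusted p = 0.592, limma). As for Krt25 and Tchh, the high value was that of KO replicate 2. In culture 2 of 5 were higher, and Tchh read 452, 403 and 335 units in KO and 238, 322 and 279 in WT (adjusted p = 0.250, limma).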

How the data were processed

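The RNA was amplified and labelled for Affymetrix mouse expression arrays, per the labels' protocols. The deposited values are linear intensities, 1 for each probe set on each array, and the submitters' processing notes name MAS5 for their making. How MAS5 was scaled is not stated. The ranges of fresh and cultured arrays differ, and how that arose was not tested.

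Probe sets were named from the array platform's annotation (34945 had 1 symbol, 932 several, 9160 none here), with symbols brought up to date by a RefSeq table (GRCm38.p6) used for names. A list gene with several probe sets was represented by the brightest on average. Of 255 list entries 230 matched a gene.

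Log2 intensities, with nothing added, were fitted with limma 3.58.1 under R 4.3.3 (lmFit and eBayes with trend, 2-sided) for each condition on its own. P-values were adjusted by Benjamini-Hochberg over all tested probe sets, at 0.05. The difference of KO effects used the summed squared standard errors of both fits. The members and lists were chosen with earlier results of these data known, so nothing was adjusted over the members alone. Named are all member probe sets, the called or up to 4 lowest-p genes of a list per condition, the 5 genes most like a member, and markers that describe the samples. Further genes singled out, such as Tchh in culture and Lor in fresh cells, were chosen after their values were seen.

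Precision is limited by having 2 or 3 arrays a group. A single data set per condition was simulated, with 200 changed probe sets and noise drawn independently for each probe set and array. There the fresh test of 22893 probe sets found 14% of 2-fold and 74% of 4-fold changes and made 0 false calls. The cultured test of 22682 found 69% and 89% and made 6. Shifts shared by many probe sets of an array were not simulated, so these rates may not hold for the real arrays. Alternatives changed the filter, scaling, offset, variance model, block and arrays used.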

Additional observations from a re-analysis of the deposited data

Results flagged for a closer look

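The difference of KO effects between the conditions was tested for 1 transglutaminase probe set, that of Tgm1, and did not pass. Of 43 genes named here and tested in both conditions 4 passed, beside 165 of 18773 probe sets (0.879%), from both limma fits. These 4 genes were named for their KO change in culture, so a larger effect there follows in part from that choice and their count supports nothing. The difference was 3.70 for Lor (2.64 in culture, -1.06 in fresh cells, adjusted p = 0.0234), 2.18 for Csta1 (2.17 and -0.01, adjusted p = 0.0176), 1.74 for Ivl (2.07 and 0.32, adjusted p = 0.0249) and 1.51 for Cyp4f39 (1.33 and -0.18, adjusted p = 0.0286). Fresh and cultured signals lie on different scales, whose part in these differences was not tested.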

How the results depend on the processing

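The count of transglutaminase probe sets that passed was 0 in culture under all 16 alternatives, and 0 in fresh cells except in 1 fit over all 10 arrays (2, both of Tgm3) and without single arrays (0 to 1). The count for the difference of KO effects was 1 with no filter, Tgm3 by 1440150_at, and 0 otherwise. Log2 changes of Tgm1 in culture were 0.72 to 1.22 (adjusted p = 0.0855 to 0.442, limma) and those of Tgm3 by 1440150_at in fresh cells 1.54 to 1.72 (5.51e-05 to 0.985). Without single arrays, values that changed sign ranged from -0.476 to 0.0721 for fresh Tgm1, -0.95 to 0.39 for fresh Tgm5, -0.0553 to 0.329 for Tgm2 by 1417500_a_at in fresh cells, and in culture -0.0024 to 0.0048 for 1426004_a_at and -0.0397 to 0.0324 for 1455900_x_at. In culture 1426004_a_at was also at -0.0259 after quantile normalization, and 1455900_x_at at 0.0092 with 75th percentile centring and 0.0125 with array weights. The cause was not tested.

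Over all probe sets the fresh count of 0 became 447 in the 10-array fit and 0 to 945 without single arrays (945 without KO replicate 1, 11 without KO replicate 2). The cultured count of 62 became 2 with no filter, 128 with 75th percentile centring, 7 with no trend, 299 with array weights, 547 in the 10-array fit and 0 to 95 without single arrays (0 without KO replicate 2, KO replicate 3 or WT replicate 3, 1 without WT replicate 2, 26 without WT replicate 1). With a replicate block it was 17, and the block moved no transglutaminase past the threshold. Deviations of same-numbered arrays correlated at 0.32, 0.08 and 0.25 across probe sets in culture, and those of unlike-numbered arrays at -0.30 to 0.17. These values do not settle whether the cultured arrays are paired. In fresh cells same-numbered arrays were at -0.05 and unlike-numbered ones at 0.05. With 2 arrays a group these can differ only in sign, so they cannot show a pairing. The labels name no pairs, and the main fits used none. When a gene's probe sets were averaged instead, the median of the Tgm2 partner and matrix list was 0.0075 in fresh cells and -0.01 in culture. Chosen after seeing the data, leaving out fresh KO replicate 2 turned the inner root sheath median to -1.04 and moved the other list medians in fresh cells to -0.11 to 0.13. The low number of arrays and the dim range in culture limit what can be seen of Tgm2, Tgm3 and Tgm5.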
